A study of Mus musculus with 4 samples.

Results

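The proteasome is the large protease that degrades ubiquitin-tagged proteins, and its genes are described here in dendritic cells (DC) of the mouse spleen after exposure to TCDD, the dioxin that is the model ligand of the aryl hydrocarbon receptor (AhR). Members were the genes whose symbol begins with Psma, Psmb, Psmc, Psmd, Psme, Psmf or Psmg followed by a digit, each read on its brightest probe set (highest mean over the 4 arrays) among probe sets annotated to a single symbol. The rule used no difference between the groups. It found 48 genes of 12393 in all, on 85 of the 22626 probe sets tested, and 21 of the 48 genes had more than 1 probe set. Of these genes 46 encode subunits, activators, inhibitors or assembly chaperones of the proteasome. The other two, Psmc3ip, a meiotic recombination factor, and Psme3ip1, a partner protein of an activator, carry such a symbol only through an interaction or a historical name. Psmb11, the catalytic chain of thymic epithelium, was not analysed here, and Psme2 was measured only on a probe set that also carries the symbol of Psme2b, a near-identical copy.

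Both groups consisted of female C57BL/6 mice aged 8 to 12 weeks that were injected once into the peritoneum. The TCDD group received 10 µg/kg TCDD in corn oil and the control group the DMSO solvent in corn oil, and spleens were taken after 24 h. The labels give 3 mice per group, pooled, with DC sorted on magnetic beads to a purity above 90% and total RNA amplified before labelling. Each group has 2 arrays numbered as biological replicates; the labels do not tie the arrays to separate mice, so the p-values measure the spread between these arrays, which may be technical. Values are on a log2 scale, where a difference of 1 is a 2-fold change, and had been rounded to steps of 0.1.

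Background on the complex helps to order the genes. The 20S core is a barrel of outer alpha rings and inner beta rings, with cutting sites on the beta chains Psmb5, Psmb6 and Psmb7. The 19S particle at its ends recognises ubiquitin chains, removes them and unfolds the substrate with a ring of ATPases. In cells exposed to interferon gamma, and constitutively in DC, Psmb8, Psmb9 and Psmb10 take the places of Psmb5, Psmb6 and Psmb7; the resulting immunoproteasome, together with the PA28 activator made of Psme1 and Psme2, supplies peptides for MHC class I molecules.

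Sequences before the transcription start are shown for the exchangeable catalytic chains, because these are the genes whose regulation by interferon is best known and the exposure acts through a DNA-binding receptor. Each is the stretch of 250 bases before the start from RefSeq (GRCm38.p6), 5′ to 3′ on the gene's strand; capitals mark matches on either strand to the AhR core GCGTG (reverse complement CACGC) or to the gamma-activated site TTCNNNGAA, an element of interferon-responsive promoters. Psmb7 is named only. The stretch of Psmb6 runs past base 70525324, where the span given for that gene begins, so its last bases lie within that span. The stretches are chr17:34197945-34198194 (plus strand) for Psmb8, chr17:34187331-34187580 (minus) for Psmb9, chr8:105938393-105938642 (minus) for Psmb10, chr14:54617996-54618245 (minus) for Psmb5 and chr11:70525107-70525356 (plus) for Psmb6.
Psmb8: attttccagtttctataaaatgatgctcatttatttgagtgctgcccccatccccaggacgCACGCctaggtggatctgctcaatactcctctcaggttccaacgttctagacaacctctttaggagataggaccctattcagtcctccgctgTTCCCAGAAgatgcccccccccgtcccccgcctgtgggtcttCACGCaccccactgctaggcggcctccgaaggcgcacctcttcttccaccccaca
Psmb9: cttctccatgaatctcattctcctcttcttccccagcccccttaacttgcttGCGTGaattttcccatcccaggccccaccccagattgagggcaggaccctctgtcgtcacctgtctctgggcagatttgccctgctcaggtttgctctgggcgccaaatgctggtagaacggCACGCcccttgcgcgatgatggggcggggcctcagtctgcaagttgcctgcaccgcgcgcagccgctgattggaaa
Psmb10: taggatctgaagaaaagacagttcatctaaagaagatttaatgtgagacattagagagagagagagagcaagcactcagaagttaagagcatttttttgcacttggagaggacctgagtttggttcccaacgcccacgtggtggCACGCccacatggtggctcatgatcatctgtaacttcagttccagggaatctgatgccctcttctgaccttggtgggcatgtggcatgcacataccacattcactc
Psmb5: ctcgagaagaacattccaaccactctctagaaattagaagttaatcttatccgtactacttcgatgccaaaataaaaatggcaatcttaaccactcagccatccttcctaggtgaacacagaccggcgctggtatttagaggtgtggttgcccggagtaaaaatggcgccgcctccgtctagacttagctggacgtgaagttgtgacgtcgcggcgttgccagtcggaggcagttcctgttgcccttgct
Psmb6: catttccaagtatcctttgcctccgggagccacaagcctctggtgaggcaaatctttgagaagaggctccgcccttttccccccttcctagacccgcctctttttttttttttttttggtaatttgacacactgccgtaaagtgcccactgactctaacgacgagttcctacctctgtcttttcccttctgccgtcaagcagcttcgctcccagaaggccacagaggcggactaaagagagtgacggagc

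The AhR core was matched at 2 places each before Psmb8 and Psmb9 and at 1 place before Psmb10, and not in the windows of Psmb5 and Psmb6. The single match to the gamma-activated site in these windows lay 97 to 89 bases before the start of Psmb8. Over the 40 windows of 38 proteasome genes held by the table, 45% contained the AhR core and 5% the gamma-activated site, against 28.2% and 7.02% of all 32851 windows of the same length. The interferon-stimulated response element, searched by its core on both strands, was in 7.5% of the proteasome windows (those of Psmb3, Psmd4 and Psmd9) and 2.98% of all. An antioxidant-type element, TGANNNNGC, the kind bound by the proteasome gene regulator Nfe2l1, was in 37.5% and 35.2%; it overlapped the AhR core in Psmc2 and the gamma-activated site in Psmg1. A match describes letters and is no evidence of binding, and short motifs are common.

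Most proteasome genes read lower in the TCDD arrays, by a modest amount. The median difference of TCDD minus DMSO over the 48 genes was -0.35, against 0.00 over all 12393 genes, and single genes ranged from -1.30 to 0.55. In 37 genes the mean difference was below 0, in 9 above 0 and in 2 at 0; quantile normalization on top of the deposited values gave 27 below and 20 above, and cyclic loess 30 and 18. Both TCDD arrays lay below both DMSO arrays in 19 of the 48 genes, 39.6% (background over all genes 19.4%), and above them in 5 (background 20%). After quantile normalization these counts were 9 and 6 (background 15% and 23.9%), and after cyclic loess 12 and 6 (background 21.2% and 24.2%), so that the lower ones went from 79.2% of the genes without overlap to 60% and 66.7%. Median centring gave 20 and 4 (background 25.2% and 14.2%), with 83.3% lower. Its median difference was -0.40, against -0.05 over all genes. In a sample of pooled cells, fewer cells of a type and less RNA per cell cannot be told apart.

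No proteasome gene passed the test. Limma called 0 of the 48 at an adjusted p under 0.05 (background 0.00% of 22626 probe sets), and their smallest adjusted p of 0.349 was also the smallest of the whole table. At an unadjusted p under 0.05 limma found 7 of the 48 lower (background 7.35% of all genes) and 2 higher (background 7.10%). The lowest p that exact permutation of 2 and 2 arrays allows is 0.33, so no permutation test was run. Every difference below is therefore a description of these arrays.

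**Figure D1:**
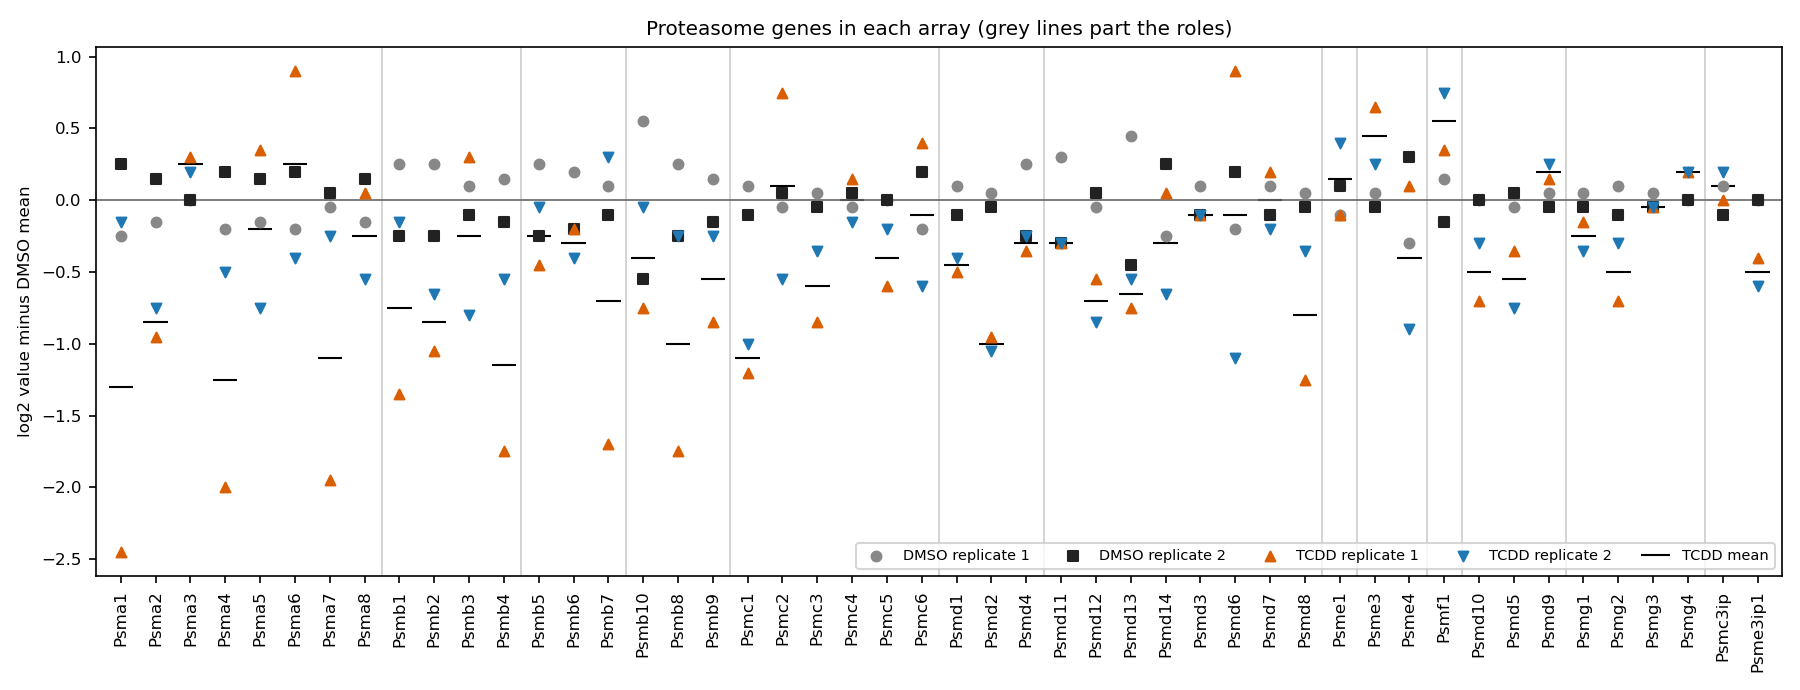
Each point is 1 array's log2 value minus the mean of the DMSO arrays for that gene (vertical axis), for the 48 genes ordered by role (horizontal axis); the short lines are the means of the TCDD arrays. Most TCDD means lie below 0, and TCDD replicate 1 carries the lowest values, down to -2.45 in Psma1.

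The proteasome genes are brighter than most, at a median level of 8.15, and bright genes read lower in TCDD in general. Among genes with a mean level from 8 to 9, 5 of 13 proteasome genes (38.5%) lay lower without overlap, and 38.2% of 1211 genes of all kinds did. From 9 to 10 the shares were 3 of 8 (37.5%) and 41.7%. At these levels the shares were close. At levels from 7 to 8 the proteasome share was 4 of 8 (50%) against 29.8%, and from 6 to 7 it was 4 of 8 (50%) against 15.7%, with 3 of 8 (37.5%) higher against 23.7%. Under 6 it was 2 of 4 (50%) against 8.88%. Of the 5 brightest members, at 10 and over, 0 lay lower without overlap, against 36.1% of the 388 genes there. These shares leave out Psmc3ip and Psme3ip1 and rest on few proteasome genes per level.

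**Figure D2:**
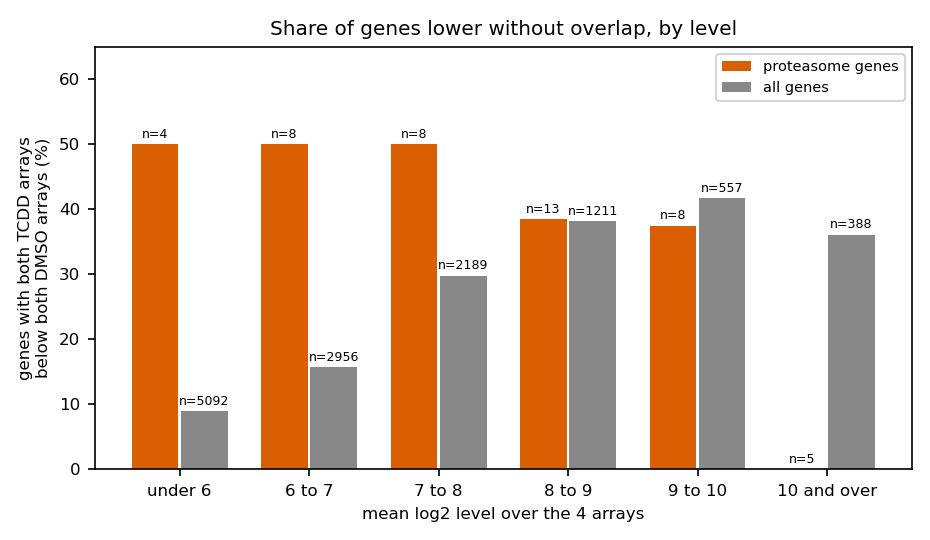
Bars give the percentage of genes with both TCDD arrays below both DMSO arrays (vertical axis, from 0) by mean log2 level (horizontal axis), for 46 proteasome genes and for all genes, with the number of genes above each bar. At levels from 8 to 10 the bars stand at 38.5% and 37.5% for proteasome genes and at 38.2% and 41.7% for all genes.

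The immunoproteasome chains read lower in TCDD on average and mainly through 1 array. Psmb8, which replaces Psmb5 as the chymotrypsin-like chain, lay at 10.7 and 10.2 in the DMSO arrays against 8.7 and 10.2 in the TCDD arrays, in the order of replicates 1 and 2. TCDD replicate 1 was 1.75 below the DMSO mean and TCDD replicate 2 was level with DMSO replicate 2, so the groups touched. The difference was -1.0 (SE 0.645), 2-fold lower, with an unadjusted p of 0.218. Psmb9, which replaces Psmb6, lay at 9.8 and 9.5 in the DMSO arrays against 8.8 and 9.4 in the TCDD arrays. Its groups did not overlap, by 1 rounding step, and the difference was -0.55 (SE 0.28). Psmb10, which replaces Psmb7, lay at 8.6 and 7.5 in the DMSO arrays against 7.3 and 8.0 in the TCDD arrays, with overlap; the difference was -0.40 (SE 0.533), and it was 0.15 without DMSO replicate 1.

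The PA28 alpha gene Psme1 was among the brightest proteasome genes and did not share this. It lay at 10.2 and 10.4 in the DMSO arrays against 10.2 and 10.7 in the TCDD arrays, differing by 0.15 (SE 0.227), or -0.10 without TCDD replicate 2. The probe set shared by Psme2 and Psme2b lay at 10.3 and 9.9 in the DMSO arrays against 9.3 and 9.9 in the TCDD arrays, differing by -0.50 (SE 0.30) that cannot be given to either gene. On both probe sets the groups overlapped or were tied. Over Psmb8, Psmb9, Psmb10 and Psme1 the median difference was -0.47, which shrank to -0.12 under quantile normalization and -0.21 under cyclic loess. Of the 4 genes 1 lay lower without overlap (25%, against 19.4% of all genes and 41.7% at levels from 9 to 10).

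The constitutive catalytic chains differed less on average, with 1 exception. Psmb5 lay at 9.1 and 8.6 in the DMSO arrays against 8.4 and 8.8 in the TCDD arrays, differing by -0.25 (SE 0.267) that became 0.10 under quantile normalization and 0.05 under cyclic loess. Psmb6, the caspase-like chain, lay at 9.1 and 8.7 in the DMSO arrays against 8.7 and 8.5 in the TCDD arrays; its difference of -0.30 (SE 0.192) became 0.05 under quantile normalization. Neither gene's TCDD arrays left the DMSO range by more than 0.2. Psmb7, the trypsin-like chain, lay at 8.1 and 7.9 in the DMSO arrays against 6.3 and 8.3 in the TCDD arrays. Its difference of -0.70 (SE 0.819) came wholly from TCDD replicate 1, and without that array it was 0.30.

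Set against their counterparts within each array, the immunoproteasome chains showed no shift in 1 direction. The change in Psmb8 minus Psmb5 was -1.30 and -0.20 in TCDD replicates 1 and 2, relative to the DMSO mean of that difference. For Psmb9 minus Psmb6 it was -0.65 and 0.15. For Psmb10 minus Psmb7 it was 0.95 and -0.35, where the DMSO arrays themselves stood at 0.45 and -0.45. The mean of the 3 pairs was -0.33 and -0.13 in TCDD and 0.13 and -0.13 in DMSO, so that TCDD replicate 2 equalled DMSO replicate 2. The average of -0.23 was little above the spread between arrays (pooled SD 0.17). By median the 42 other proteasome genes differed by -0.30 and the 4 immunoproteasome genes by -0.47. Lower without overlap were 17 of 42 (40.5%) and 1 of 4 (25%), against 19.4% of all genes. The median levels of these lists were 8.15 and 9.66. Of all genes, 38.2% lay lower at levels from 8 to 9 and 41.7% from 9 to 10. A difference between the lists was not tested.

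**Figure D3:**
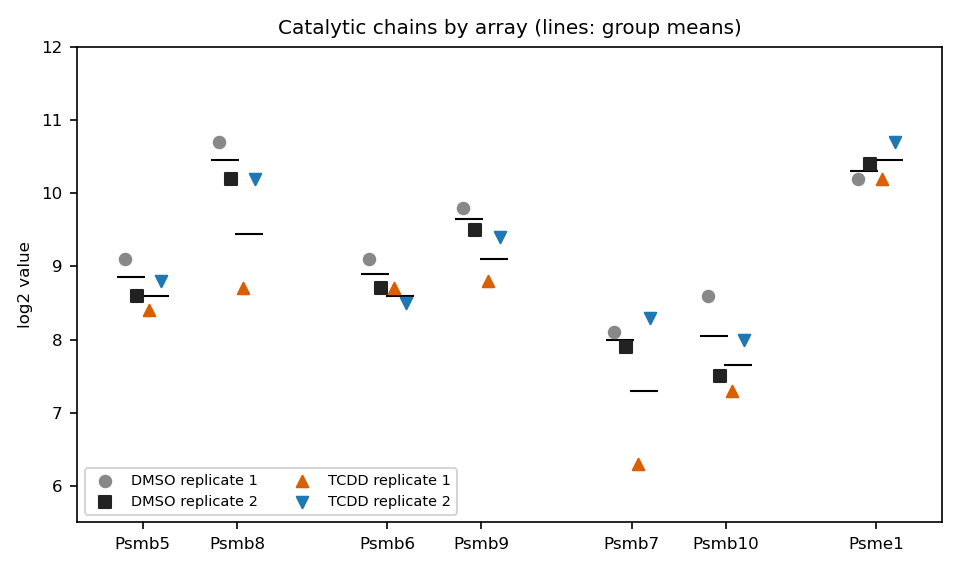
Points give the log2 value (vertical axis) in each of the 4 arrays for the catalytic chains, each constitutive chain beside the chain that replaces it, and for Psme1; short lines are group means. TCDD replicate 1 is the lowest array in Psmb5, Psmb8, Psmb9, Psmb7 and Psmb10, and TCDD replicate 2 lies within or next to the DMSO arrays.

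The alpha ring, which gates the entrance of the core, showed the widest range among its own genes. Psma1 lay at 8.8 and 9.3 in the DMSO arrays against 6.6 and 8.9 in the TCDD arrays, differing by -1.30 (SE 0.958) with overlap. Psma4 lay at 8.6 and 9.0 in the DMSO arrays against 6.8 and 8.3 in the TCDD arrays, differing by -1.25 (SE 0.634). Psma7 lay at 8.3 and 8.4 in the DMSO arrays against 6.4 and 8.1 in the TCDD arrays, differing by -1.10 (SE 0.695). In all 3 genes TCDD replicate 1 stood far below the other arrays, while TCDD replicate 2 was at most 0.5 below the DMSO mean. On the other probe set of Psma7 TCDD replicates 1 and 2 differed from the DMSO mean by -1.55 and -0.75. Psma2 behaved differently: at 10.2 and 10.5 in the DMSO arrays against 9.4 and 9.6 in the TCDD arrays, both TCDD arrays were lower by a similar amount. Its difference was -0.85 (SE 0.159), 1.8-fold, with an unadjusted p of 0.0125. Psma3 was higher, at 11.2 in both DMSO arrays and 11.5 and 11.4 in the TCDD arrays, differing by 0.25 (SE 0.0744). Psma5, Psma6 and Psma8, the last a testis form near the dim end of the scale, overlapped on their brightest probe sets, with differences from -0.25 to 0.25. Other probe sets were lower without overlap in Psma5 (-0.45) and Psma6 (-0.55, and -0.35 on a dim probe set). A dim probe set of Psma5 was higher without overlap (0.15).

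In the beta rings the structural chains were lower on their brightest probe sets. Psmb4 lay at 10.4 and 10.1 in the DMSO arrays against 8.5 and 9.7 in the TCDD arrays, differing by -1.15 (SE 0.506). Psmb2 lay at 8.8 and 8.3 in the DMSO arrays against 7.5 and 7.9 in the TCDD arrays, differing by -0.85 (SE 0.267) with an unadjusted p of 0.0495. Both genes had no overlap, and in Psmb2 each TCDD array was at least 0.65 below the DMSO mean. Psmb1 and Psmb3 overlapped between the groups, at -0.75 and -0.25; Psmb3 turned to 0.11 under quantile normalization and 0.06 under cyclic loess. Over all 18 genes of the core, the median relative to the DMSO mean was -0.90 for TCDD replicate 1 against -0.33 for replicate 2.

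The 19S particle held the genes with the most even differences in both TCDD arrays. Psmd2, like Psmd1 a large scaffold subunit of the base, lay at 8.7 and 8.6 in the DMSO arrays against 7.7 and 7.6 in the TCDD arrays. That is a difference of -1.0 (SE 0.0848), and its unadjusted p of 0.00125 was the smallest among the proteasome genes. Psmc1, an ATPase of the base, lay at 7.4 and 7.2 in the DMSO arrays against 6.1 and 6.3 in the TCDD arrays, differing by -1.10 (SE 0.131) with an unadjusted p of 0.00339. In both genes the 2 TCDD arrays were within 0.2 of each other and at least 0.9 below either DMSO array. Psmd12, a lid subunit, lay at 8.1 and 8.2 in the DMSO arrays against 7.6 and 7.3 in the TCDD arrays, differing by -0.70 (SE 0.143). Psmd1 lay at 7.9 and 7.7 in the DMSO arrays against 7.3 and 7.4 in the TCDD arrays, differing by -0.45 (SE 0.11). Both again had no overlap. The second probe set of Psmc1 was dim and differed by 0.05.

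Further 19S genes without overlap depended more on TCDD replicate 1 or on DMSO replicate 1. The lid subunit Psmd8 lay at 8.7 and 8.6 in the DMSO arrays against 7.4 and 8.3 in the TCDD arrays, differing by -0.80 (SE 0.373). The ATPase Psmc3 lay at 8.7 and 8.6 in the DMSO arrays against 7.8 and 8.3 in the TCDD arrays, differing by -0.60 (SE 0.216). In both, TCDD replicate 2 was 0.3 below the lower DMSO array. Psmd13 lay at 7.9 and 7.0 in the DMSO arrays against 6.7 and 6.9 in the TCDD arrays, differing by -0.65 (SE 0.38) in which DMSO replicate 1 stood apart. Psmc5 was lower without overlap too, at -0.40. On their brightest probe sets the remaining 9 genes of the particle overlapped or were tied, with differences from -0.30 to 0.10. Among them were the ubiquitin receptor Psmd4 and the deubiquitinating enzyme Psmd14, both at -0.30. Quantile normalization took Psmd4 to 0.05 and Psmd14 to 0.01. Another probe set was lower without overlap in Psmc2 (-0.90), Psmc4 (-0.70) and Psmd6 (-0.70). Dim probe sets without overlap went both ways, with Psmd11 at -0.25 and 0.20 and Psmd7 at 0.15. For the ATPases the median of -0.25 shrank to -0.01 under quantile normalization and -0.08 under cyclic loess, and for the lid -0.30 shrank to -0.01 and -0.03.

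Of 7 assembly chaperones 4 lay lower without overlap and 2 higher; of all genes at levels from 6 to 7, 15.7% lay lower and 23.7% higher, and under 6, 8.88% and 28.4%. Psmd5 lay at 7.1 and 7.2 in the DMSO arrays against 6.8 and 6.4 in the TCDD arrays, differing by -0.55 (SE 0.179). Psmd10, also known as gankyrin, lay at 5.5 in both DMSO arrays and 4.8 and 5.2 in the TCDD arrays, differing by -0.50 (SE 0.174). Psmg2, a chaperone of the alpha ring, lay at 5.8 and 5.6 in the DMSO arrays against 5.0 and 5.4 in the TCDD arrays, differing by -0.50 (SE 0.192). Psmd10 and Psmg2 lie under the 40th percentile of all probe sets (5.525), where a change need not show in full. Psmg1, the partner of Psmg2, was lower by a small amount, at -0.25. Psmg4 was higher, at 6.8 in both DMSO arrays and 7.0 in both TCDD arrays, a difference of 0.20 (SE 0.0624). Its rounded values were equal within each group, so that SE comes from limma's prior alone. Psmd9 was also higher by 0.20, and Psmg3 differed by -0.05.

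Psmf1, a proteasome inhibitor, had the largest positive difference of the 48 genes. It lay at 7.1 and 6.8 in the DMSO arrays against 7.3 and 7.7 in the TCDD arrays, differing by 0.55 (SE 0.212). Its 3 other probe sets were dim and differed by -0.30 to -0.10, so the direction rests on 1 probe set. Psme3, the nuclear activator PA28 gamma, was higher without overlap as well, at 0.45, on the brightest of 3 probe sets; the other two, both dim, differed by 0.35 and -0.05. Psme4, the activator PA200, overlapped at -0.40 on its brightest probe set. Its others differed by -0.80 without overlap and by -0.15 with overlap. Of the genes that carry a proteasome-like symbol only, Psme3ip1 lay at 8.2 in both DMSO arrays and 7.8 and 7.6 in the TCDD arrays, differing by -0.50 (SE 0.102), and Psmc3ip differed by 0.10.

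Not all the same genes were low in the 2 TCDD arrays, read on the brightest probe sets. Of the 48 genes 8 were at least 0.5 below the DMSO mean in both: Psma2, Psma4, Psmb2, Psmb4, Psmc1, Psmd2, Psmd12 and Psmd13. In 13 genes the TCDD arrays lay on opposite sides of the DMSO mean, and in 11 of these TCDD replicate 1 was the higher one. Psmb7 and Psmd6 were the widest cases, and Psmd6 lay at 7.7 and 8.1 in the DMSO arrays against 8.8 and 6.8 in the TCDD arrays. The other probe set of Psmd6 lay at 7.8 and 8.3 in DMSO against 7.5 and 7.2 in TCDD, lower without overlap. The median gap between the TCDD arrays was 0.40, against 0.20 between the DMSO arrays; over all genes these gaps were 0.30 and 0.20.

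**Figure D4:**
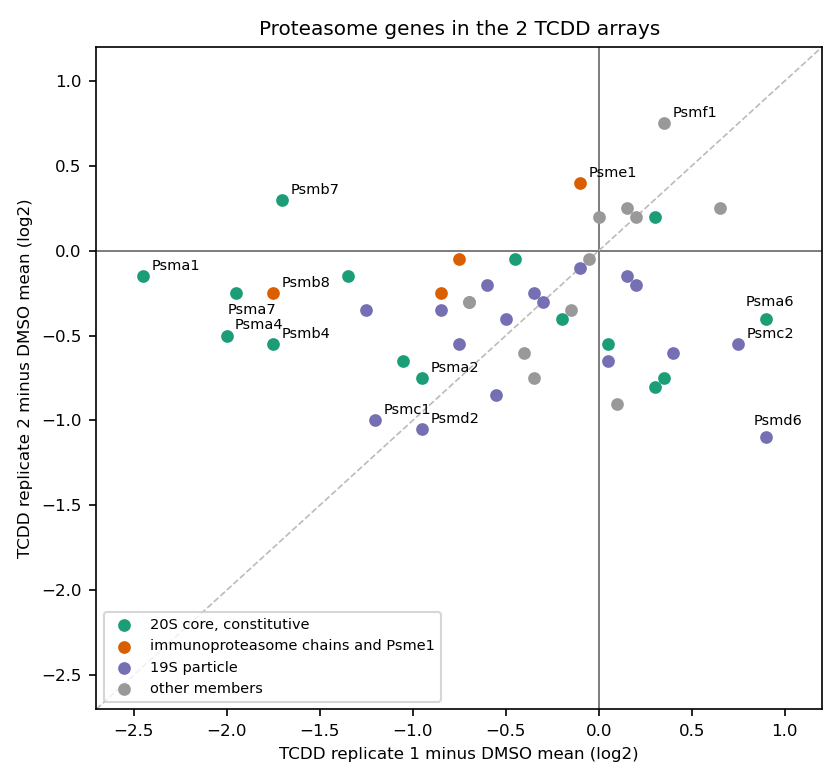
Each point is 1 of the 48 genes, with the log2 value in TCDD replicate 1 minus the DMSO mean on the horizontal axis and the same for TCDD replicate 2 on the vertical axis; the dashed line marks equal values. Psmc1 and Psmd2 lie near the line at about -1, while Psma1, Psma4, Psma7, Psmb4, Psmb7 and Psmb8 lie far to the left with TCDD replicate 2 between -0.55 and 0.30.

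In TCDD replicate 1 a few core genes dropped out of line. Psma1, Psma4, Psma7, Psmb7 and Psmb8 were at least 1.5 lower there than in each of the other 3 arrays, 5 of 48 genes or 10.4%, against 43 of all 12393 genes or 0.347%. With a step of 1 the genes Psmb1 and Psmb4 joined them, 14.6% against 1.08%. These backgrounds were not matched for level: the median level was 8.15 over the 48 genes and 6.35 over all genes. Shares by level were not computed for these counts. In TCDD replicate 2 and in both DMSO arrays 0 of the 48 genes were lower by a step of 1. The same array differed in quality controls: its gap between the 3′ end and the middle was 3.6 for the Gapdh control probe sets and 4.0 for beta-actin, against 1.5 to 2.1 in the other arrays. The gap between the 3′ and 5′ ends stood apart less, at 5.4 for Gapdh against 4.1 to 4.9, and at 4.4 for beta-actin against 3.3 to 4.0. It also held more signal of neutrophil markers, at a mean level over 9 genes of 7.61, where the DMSO arrays had 6.34 and 6.00 and TCDD replicate 2 had 6.21. The part of either in these values was not tested.

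Probe sets of the same proteasome gene disagreed in that array. Values are given as a description for the 11 genes with more than 1 probe set at a mean level of at least 7. The range between their probe sets, as differences from the DMSO mean, was by median 1.25 for TCDD replicate 1, 0.25 for TCDD replicate 2 and 0.15 for each DMSO array. Over all 933 genes with such probe sets the medians were 0.70, 0.35, 0.15 and 0.15. For the ATPase gene Psmc2 the brightest probe set was 0.75 above the DMSO mean in TCDD replicate 1, and the other, at 9.7 and 9.9 in DMSO, read 8.4 there. For Psma6 the brightest probe set read 11.3 in that array (DMSO 10.2 and 10.6) and the other 8.4 (DMSO 9.1 and 9.4). For Psmb4 the brightest probe set was the low one, and the other lay at 9.1 in both DMSO arrays and at 9.5 in TCDD replicate 1. Psmb1 was split in both TCDD arrays, with differences of -0.75 on its brightest probe set and 0.45 on another.

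**Figure D5:**
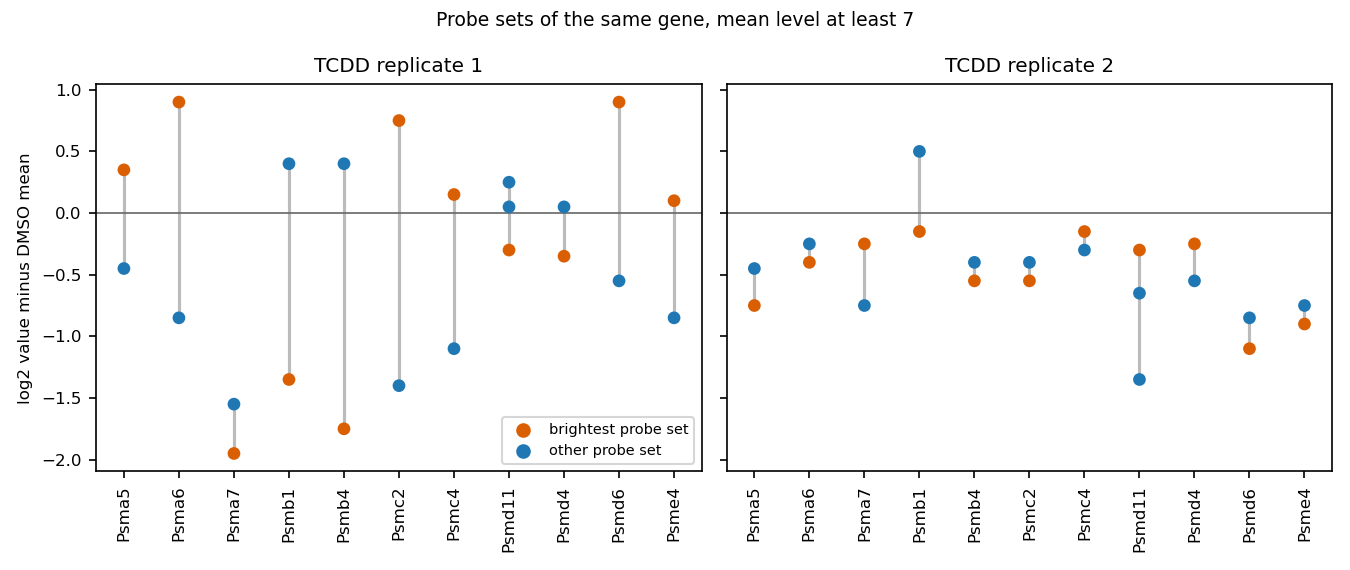
Points give the log2 value minus the DMSO mean (vertical axis) of each probe set with a mean level of at least 7, for 11 genes (horizontal axis), in TCDD replicate 1 on the left and TCDD replicate 2 on the right; grey lines join probe sets of 1 gene. In Psmc2 and Psmb4 the probe sets are 2.15 apart in TCDD replicate 1 and 0.15 apart in TCDD replicate 2.

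The type of probe set went with the difference. Among the proteasome probe sets at levels of at least 7, those with a plain ID had a median difference of -0.70 (25 probe sets, 15 lower without overlap), those whose ID marks transcripts of 1 gene (a_at) -0.25 (15, with 3 lower), and those whose probes can match several genes (s_at or x_at) -0.15 (6, with 1 lower). Over all probe sets at these levels the medians were -0.30, -0.25 and -0.15, and 39.7%, 33.5% and 20.1% lay lower, against 60%, 20% and 16.7% of the proteasome probe sets. In TCDD replicate 1 the 3 proteasome medians were -0.85, 0.05 and 0.25, and in TCDD replicate 2 they were -0.35, -0.55 and -0.55. The positions of the probes along the transcripts were not used here.

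Genes that act beside the proteasome read lower in part, and again none passed the test: limma called 0 genes in each of the lists below at an adjusted p under 0.05. Of 9 measured proteasome-associated genes 4 lay lower without overlap and 0 higher, with a median of -0.40. That share of 44.4% stands beside 38.2% of all genes at levels from 8 to 9, where the median level of the list lies, and the median became -0.01 under quantile normalization and -0.09 under cyclic loess. The ubiquitin receptor Rad23b differed by -0.75 (SE 0.137) and Ubqln1, a shuttle factor, by -0.65 (SE 0.11), while the assembly factor gene Pomp differed by -0.40 with overlap. Of 4 measured genes of ubiquitin handling and the p97 segregase 1 lay lower without overlap (25%, against 29.8% of all genes at levels from 7 to 8). Their median of -0.25 became -0.05 under quantile normalization and -0.12 under cyclic loess. The lower gene was Vcp, which encodes p97 itself. Vcp lay at 9.1 and 9.0 in the DMSO arrays against 7.6 and 8.2 in the TCDD arrays, differing by -1.15 (SE 0.255). Of 8 regulators 3 lay lower (37.5%, against 29.8% of all genes at levels from 7 to 8). Nfe2l1, which drives proteasome genes when the protease is blocked, differed by -0.40 with a tie between the groups, and Ngly1, the glycanase that activates it, by -1.10 (SE 0.373).

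Genes of peptide supply and MHC class I, and interferon regulators of immunoproteasome genes, read lower in nearly all cases, mostly by small amounts in the second list. A mean difference below 0 was found in 11 of 12 and 8 of 8, against 6092 of all 12393 genes, not matched for level. Under quantile normalization or cyclic loess 9 of 12 and 5 of 8 lay below 0. Psmb9, Tap1, Psmb8 and Tap2 are neighbours in the MHC region, where Psmb9 at chr17:34182030-34187330 and the peptide transporter gene Tap1 at chr17:34187556-34197225 stand back to back. Tap1 lay at 9.5 and 9.3 in DMSO and at 9.1 in both TCDD arrays, a difference of -0.30 (SE 0.102), and Tap2 differed by -0.55 (SE 0.50) with overlap. Of 12 genes of peptide supply and MHC class I 6 lay lower without overlap (50%, against 41.7% of all genes at levels from 9 to 10), with a median of -0.50. Tpp2, a peptidase that acts after the proteasome, differed by -0.45 (SE 0.0744), and the chaperone gene Canx by -0.85 (SE 0.11). The largest differences of this list were less even: Pdia3 differed by -2.30 (SE 1.18) and H2-D1 by -1.40 (SE 0.953). Relative to the DMSO mean they stood at -3.75 and -2.50 in TCDD replicate 1, and at -0.85 and -0.30 in TCDD replicate 2. Of 8 interferon regulators 4 lay lower without overlap (50%, against 38.2% of all genes at levels from 8 to 9), with a median of -0.25. Ifngr1, a receptor chain for interferon gamma, differed by -0.80 (SE 0.183), while Irf1, a direct activator of Psmb9, differed by -0.20 with overlap.

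Markers of DC were present, and they read lower as well, by a median of -0.58 (-0.28 under quantile normalization and -0.30 under cyclic loess). The 12 measured markers had mean levels of 9.95 and 9.71 in DMSO and 9.10 and 9.52 in TCDD. Of these markers 5 lay lower without overlap (41.7%, against 19.4% of all genes and 38.2% at levels from 8 to 9). Itgax (CD11c) lay from 9.1 to 10.1 and H2-Aa from 12.9 to 13.3, while Xcr1 was dim at 5.2 to 5.5. Macrophage and monocyte markers had a median difference of -0.80, with 5 of 9 lower without overlap (55.6%; of all genes 19.4%, and 38.2% at levels from 8 to 9) and mean levels of 9.43 and 9.32 in DMSO and 8.74 and 8.66 in TCDD. Neutrophil markers had 3 of 9 higher without overlap (33.3%, against 20% of all genes and 23.7% at levels from 6 to 7). Markers of B cells went both ways, with 2 of 6 lower (Cd79b and Ms4a1, both at -0.60) and 2 higher without overlap (Cd79a at 0.45 and Fcer2a at 0.20). Plasmacytoid DC markers ranged from -0.65 for Tcf4 to 0.80 for Ccr9, all 5 with overlap or ties, T and NK cell markers from -0.25 to 0.25 and erythroid markers from -0.05 to 0.35. The part of cell composition in the proteasome values was not tested.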

How the data were processed

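RNA of each group was hybridised to 2 Affymetrix mouse arrays, 4 in all. The authors deposited log2 values made with RMA, a method that summarises a probe set's normalized probes, per the submitters' processing notes. The array's 64 control probe sets entered no test. TCDD was compared with DMSO on all 22626 other probe sets by lmFit and eBayes of limma 3.58.1 (R 4.3.3), two-sided, with Benjamini-Hochberg adjustment over all of them, and the fit was tested on simulated data. A standard error (SE) is limma's moderated one. Where the rounded values of a group hardly differed, its size rests largely on limma's prior. By the platform annotation 20380 probe sets have 1 symbol, 691 several and 1555 none. Genes read on their brightest probe set gave the background shares. The genes and lists were chosen with earlier results of these data known.

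Values in every array are given for the catalytic chains, Psme1, and members without overlap at a difference of at least 0.5. They are also given for members with an unadjusted limma p under 0.05. Of related lists some genes are named, which are not always those with the largest differences. Psma1 and Psmd6, further probe sets, the marker genes and the probe set of Psme2 and Psme2b were singled out after their values were seen, as were the counts by level, by probe set type and by array. Promoter windows come from RefSeq, GRCm38.p6, and hold 38 of the 46 proteasome genes. Arrays give no counts; their number limits the precision. Alternatives were other scalings, filters, probe set choices, priors, a replicate block and leaving out each array.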

Additional observations from a re-analysis of the deposited data

How the results depend on the processing

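Limma called 0 proteasome genes and 0 probe sets under every alternative run, including the replicate block (0 calls). The replicate numbers are not stated to pair the arrays; replicate 1 minus 2 correlated at -0.189 between the groups, and a crossed pairing, added after the data were seen, also called 0. The genes lower without overlap went from 19 to 9 under quantile normalization and 12 under cyclic loess. Where an array was dropped, they numbered between 23 and 31 (31 without TCDD replicate 1). The higher ones ranged from 5 to 13 where an array was dropped (13 without TCDD replicate 2), and from 4 to 6 under the other alternatives. Any gene separates more readily with 3 arrays than with 4. Background shares over all genes are not given for a dropped array, so whether these counts exceed them was not tested. The median difference of -0.35 became -0.12 under quantile normalization, -0.19 under cyclic loess, -0.45 with the median or the second brightest of a gene's probe sets, -0.43 without s_at and x_at probe sets (added after the data were seen), and spanned -0.50 to -0.32 on dropping an array. The change of the catalytic chains against their counterparts, -0.23, ranged from -0.37 to -0.10. Some alternatives cannot turn a gene: another prior, the replicate block and the filter for dim probe sets leave its difference as it is. So does the median of probe sets for a gene with 1 probe set. Dropping an array cannot turn a gene without overlap. Among 26 named genes 278 of 290 alternatives kept the direction, all uncalled, in part for these reasons. In 3 the difference was 0.00 after rounding: Psmb4 on its second brightest probe set (-1.15 on the brightest), Psmb5 without DMSO replicate 1 and Psmb6 under cyclic loess. The 9 that turned were Psmb5 at 0.10 (quantile) and 0.05 (cyclic loess), Psmb6 at 0.05 (quantile), Psmb7 at 0.30 without TCDD replicate 1 (range -1.70 to 0.30 over dropped arrays), Psmb10 at 0.15 without DMSO replicate 1 (-0.95 to 0.15), Psme1 at -0.10 without TCDD replicate 2 (-0.10 to 0.40), Psmc1 at 0.05 on its second probe set, and Psmf1 at -0.28 with the median and -0.25 on the second brightest of its probe sets. Beyond a different probe set or fewer arrays, the cause was not tested.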
